A study of Mus musculus with 6 samples.

Results

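The interferon-inducible GTPases measured here were 10 genes, 5 immunity-related GTPases (IRG: Irgm1, Irgm2, Igtp, Iigp1 and Tgtp2) and 5 guanylate-binding proteins (GBP: Gbp2, Gbp3, Gbp5, Gbp7 and Gbp9), of the 17217 rows in the expression table. They were chosen by name to set the IRG genes against the GBP genes, with the direction of many of them in these libraries already known. Their own differences between genotypes are therefore a description, given without p-values. All 10 had a row in the table, and 9 of them reached the mean of 1 TPM needed for the fit across all genes, Tgtp2 being the exception.

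Bulk RNA of mouse bone marrow-derived macrophages was sequenced in 3 Control libraries (Cd74+/+, batch 1) and 3 Knockout libraries (Cd74-/-, batch 2). Cd74 encodes the invariant chain of MHC class II, which is also a receptor component for the cytokine MIF. Per the labels' protocols, femur marrow of 8-week-old mice was cultured in M-CSF at 30 ng/mL, the growth factor that makes macrophages, and every culture then received lipopolysaccharide (LPS) at 100 ng/mL for 24 h. Libraries without LPS were not analysed here, so each comparison is between genotypes in LPS-treated cells. The protocol wording is shared by all 6 libraries and speaks of wild-type mice, so genotype rests on the titles and genotype labels, and the labels do not say how the knockout was made. Nor do they tie a replicate to its own animal or culture, so the p-values measure only the spread between these libraries, which may be technical. Genotype and batch cannot be told apart, since no batch held both genotypes.

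IRG and GBP proteins are GTPases that macrophages make when interferons act on them, and that gather on the membranes of vacuoles holding intracellular microbes. IRG proteins fall into effectors that load onto and disrupt such vacuoles and IRGM regulators that sit on the cell's own membranes and hold the effectors inactive there. GBPs assemble into coats on vacuoles and bacteria and help cytosolic LPS reach caspase-11. Interferon gamma induces both families through gamma-activated sites and through IRF1, which binds interferon-stimulated response elements. LPS reaches the same elements by way of interferon beta made by the macrophage itself.

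The DNA just upstream of the genes is shown because both families are known for these elements. RefSeq promoter windows of build GRCm38.p6 were matched by symbol for 8 of the 10 genes, Iigp1 and Gbp9 having no entry. The submitters' processing notes name another build, GRCm39, so these coordinates were used for sequence alone. The last 120 bases before the start site follow in the gene's direction, 5′ to 3′, for the first listed start of each gene. For Gbp5, whose response element and one gamma-activated site lay farther out, all 250 bases are printed. Capitals mark matches to TTCNNNGAA (gamma-activated site), to GAAA, any 2 bases and GAAA (response element, which reads TTTC, 2 bases and TTTC on the other strand) or, in Gbp5, to GGGA, any 2 bases and TTCC (a kappaB element), and both strands were searched. Overlapping matches run together.
Irgm1 (chr11:48871421-48871540, minus strand): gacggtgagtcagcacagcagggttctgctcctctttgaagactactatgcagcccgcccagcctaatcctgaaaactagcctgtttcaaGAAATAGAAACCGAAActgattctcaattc
Irgm2 (chr11:58214857-58214976, plus strand): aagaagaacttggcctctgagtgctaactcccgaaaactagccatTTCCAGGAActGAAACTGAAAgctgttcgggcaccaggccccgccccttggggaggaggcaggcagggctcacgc
Igtp (chr11:58199436-58199555, plus strand): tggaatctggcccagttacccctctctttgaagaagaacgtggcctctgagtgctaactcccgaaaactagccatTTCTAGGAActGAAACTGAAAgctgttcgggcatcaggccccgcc
Tgtp2 (chr11:49064213-49064332, minus strand): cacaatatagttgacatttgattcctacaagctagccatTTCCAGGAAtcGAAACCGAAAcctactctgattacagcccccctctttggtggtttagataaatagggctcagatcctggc
Gbp2 (chr3:142620543-142620662, plus strand): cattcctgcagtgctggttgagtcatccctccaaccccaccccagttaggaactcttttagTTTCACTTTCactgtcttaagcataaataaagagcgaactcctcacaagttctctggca
Gbp3 (chr3:142559924-142560043, plus strand): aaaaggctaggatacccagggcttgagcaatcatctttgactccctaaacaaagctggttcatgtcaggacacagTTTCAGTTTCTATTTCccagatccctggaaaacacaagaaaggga
Gbp7 (chr3:142530216-142530335, plus strand): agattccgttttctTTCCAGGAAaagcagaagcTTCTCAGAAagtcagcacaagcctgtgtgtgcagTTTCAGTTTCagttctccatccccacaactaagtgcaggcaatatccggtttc
Gbp5 (chr3:142496684-142496933, plus strand): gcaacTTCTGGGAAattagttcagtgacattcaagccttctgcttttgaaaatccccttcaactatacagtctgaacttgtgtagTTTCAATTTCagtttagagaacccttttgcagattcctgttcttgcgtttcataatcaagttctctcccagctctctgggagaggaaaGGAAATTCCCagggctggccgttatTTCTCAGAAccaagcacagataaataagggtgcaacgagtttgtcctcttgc

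A response element was found in the 250 bases upstream of the first listed start of 8 of these 8 genes. Counted by window, it was found in 978 of the 32851 RefSeq windows outside chromosome 18 (2.98%). A second listed start of Gbp3 had no match to any of the elements. A gamma-activated site was found in 5 of the 8, namely Irgm2, Igtp, Tgtp2, Gbp5 and Gbp7, against 2306 of the same windows (7.02%). The kappaB letters occurred in Gbp5 alone among the 8, and in 397 of the same windows (1.21%). In Irgm2, Igtp and Tgtp2 the gamma-activated site stood 2 bases before the response element on the gene's own strand, as the printed lines show. That arrangement occurred in 5 of the 32851 windows (0.0152%), upstream of Igtp, Irgm2, Tgtp1, Tgtp2 and Gm12185, all IRG genes on chromosome 11 and related in sequence. Chromosome 18, which holds Iigp1, was not searched for it. Irgm1 had a pair of overlapping response elements, at 30 to 21 and 24 to 15 bases before its start, and no gamma-activated site in the window. The GBP response elements were on the other strand, at 59 to 50 bases in Gbp2, 53 to 44 in Gbp7 and 165 to 156 in Gbp5, and Gbp3 had an overlapping pair at 45 to 36 and 39 to 30. These are matches of letters, and binding at them was not measured.

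Transcript levels are given as TPM, a length-scaled abundance that allows levels of different genes to be compared. The recovered depth was 36445388 to 59236464 reads per library, at which 1 read in a transcript of 1 kb was worth 0.0558 to 0.0883 TPM. Cd74 stood at 593 to 632 TPM in the Control libraries and 63.1 to 65.3 TPM in the Knockout libraries, and its row was among the 29 that could not be turned into whole reads. Knockout replicate 3 stood apart from its group. Between libraries, the typical squared deviation in well-counted rows was 4.22 times the Poisson value for Knockout replicates 1 and 2, and 21.9 and 15.8 times for replicate 3 against replicates 1 and 2. The corresponding Control values were 3.92 to 9.14. All 10 macrophage markers had a row, and their summed level was 10846 to 11371 TPM in Control and 14217 to 15475 TPM in Knockout libraries, with Mrc1 at no more than 0.65 TPM. None of the 6 T cell markers and 1 of the 6 NK cell markers had a row, the NK sum reaching at most 0.245 TPM. Neutrophil markers had 2 of 6 rows and summed to 4.55 to 6.60 TPM in Control and 16.3 to 22.6 TPM in Knockout libraries, mostly from S100a8 with the rest from Camp. The part of these shifts in the results below was not tested. In bulk RNA, fewer cells of a type and less RNA per cell cannot be told apart.

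The 2 families moved apart between the genotypes. Summed over its 5 genes, IRG transcript made up 117, 130 and 124 TPM in the Control libraries, in replicate order, and 184, 183 and 193 TPM in the Knockout libraries. The GBP sum was 236, 209 and 214 TPM in Control and 189, 190 and 133 TPM in Knockout libraries. Neither sum overlapped between the groups, the IRG sum being higher and the GBP sum lower in every Knockout library. The GBP sum was therefore 1.78 ± 0.212 times the IRG sum in Control (SD, n = 3) and 0.917 ± 0.199 times in Knockout libraries (SD, n = 3). In Knockout replicates 1 and 2 the families were nearly equal, at ratios of 1.03 and 1.04, and in replicate 3 the ratio was 0.688.

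**Figure D1:**
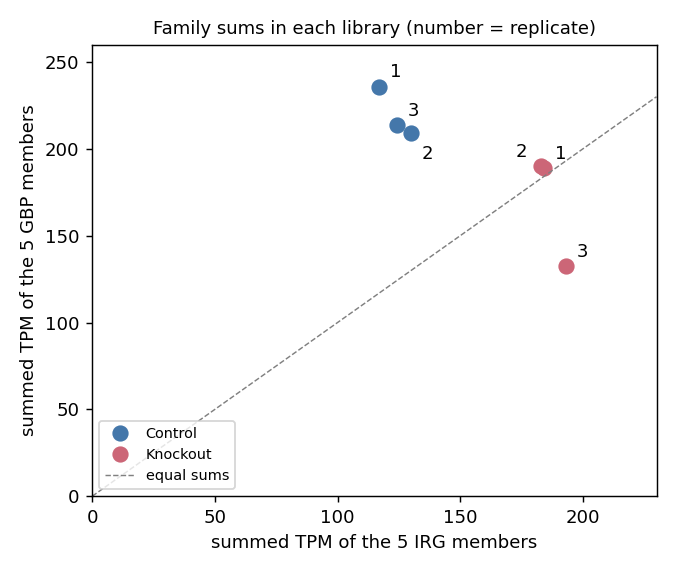
Summed TPM of the 5 GBP genes (vertical axis) against summed TPM of the 5 IRG genes (horizontal axis), 1 point per library, with the replicate number beside it and a dashed line where the sums are equal. The Control libraries lie at IRG sums of 117 to 130 TPM, well above the line, and the Knockout libraries at 183 to 193 TPM, replicates 1 and 2 just above it and replicate 3 below it.

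Sums are set by the abundant genes, so each family was also averaged gene by gene on the log2(TPM + 1) scale, on which a difference understates the change of low genes. The IRG mean went from 3.45 ± 0.06 in Control to 3.89 ± 0.05 in Knockout libraries (SD, n = 3 each), a difference of 0.44. The GBP mean went from 4.98 ± 0.11 to 4.51 ± 0.35 (SD, n = 3 each), a difference of -0.47. Within the Knockout group, replicate 3 had the lowest GBP mean. Without that library the GBP difference was -0.26, the IRG difference 0.47 and the GBP minus IRG difference -0.73, against -0.91 with all 6 libraries.

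The IRGM regulators were the most abundant IRG transcripts, and all 3 were higher in the Knockout libraries. Irgm1, the regulator that protects lysosomes and other self membranes, stood at 54.1, 65.5 and 60.4 TPM in Control and 94.9, 94.8 and 107 TPM in Knockout libraries. Every Knockout value lay above every Control value, and the mean rose 1.65-fold, a difference of 0.71 with an SE of 0.08. Irgm2, a regulator found at the Golgi, was measured at 29.0, 33.0 and 32.8 TPM in Control and 43.1, 41.2 and 43.0 TPM in Knockout libraries. Its groups did not overlap either, the ratio of means being 1.34 and the log2 difference 0.42 (SE 0.06). Igtp, also called Irgm3 and found on the endoplasmic reticulum and lipid droplets, gave 32.7, 30.0 and 29.4 TPM in Control and 44.4, 44.5 and 42.1 TPM in Knockout libraries. This was a ratio of 1.42 and a log2 difference of 0.49 (SE 0.06), again with no overlap. Irgm2 and Igtp are neighbours whose annotated gene spans overlap on the same strand. Overlap of their exons was not checked, and reads in any shared exon may be credited to either.

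The effectors Iigp1 and Tgtp2 were low in both genotypes. Iigp1, which encodes the effector Irga6, was listed at 0.879, 1.09 and 1.15 TPM in Control and 1.45, 1.85 and 0.695 TPM in Knockout libraries. Its groups overlapped, since Knockout replicate 3 was the lowest of the 6 libraries and replicate 2 the highest. The log2 difference was 0.16 with an SE of 0.22, and did not pass the test. It was 0.37 without Knockout replicate 3 and near 0 without Knockout replicate 2. Tgtp2, an effector whose symbol stands for the name T cell-specific GTPase, was at 0.180, 0.212 and 0.261 TPM in Control libraries. It was at 0.570, 0.607 and 0.688 TPM in Knockout libraries. These levels rested on 6, 10 and 12 reads in Control and 30, 28 and 34 reads in Knockout libraries, a ratio of 2.86 with no overlap. All 6 counts were even, as were 71.0% of the table's values of 1 to 12 reads, so they may stand for fewer independent fragments than reads. Tgtp1, its near-identical neighbour, had no row, so reads of the pair could have been credited to either gene.

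**Figure D2:**
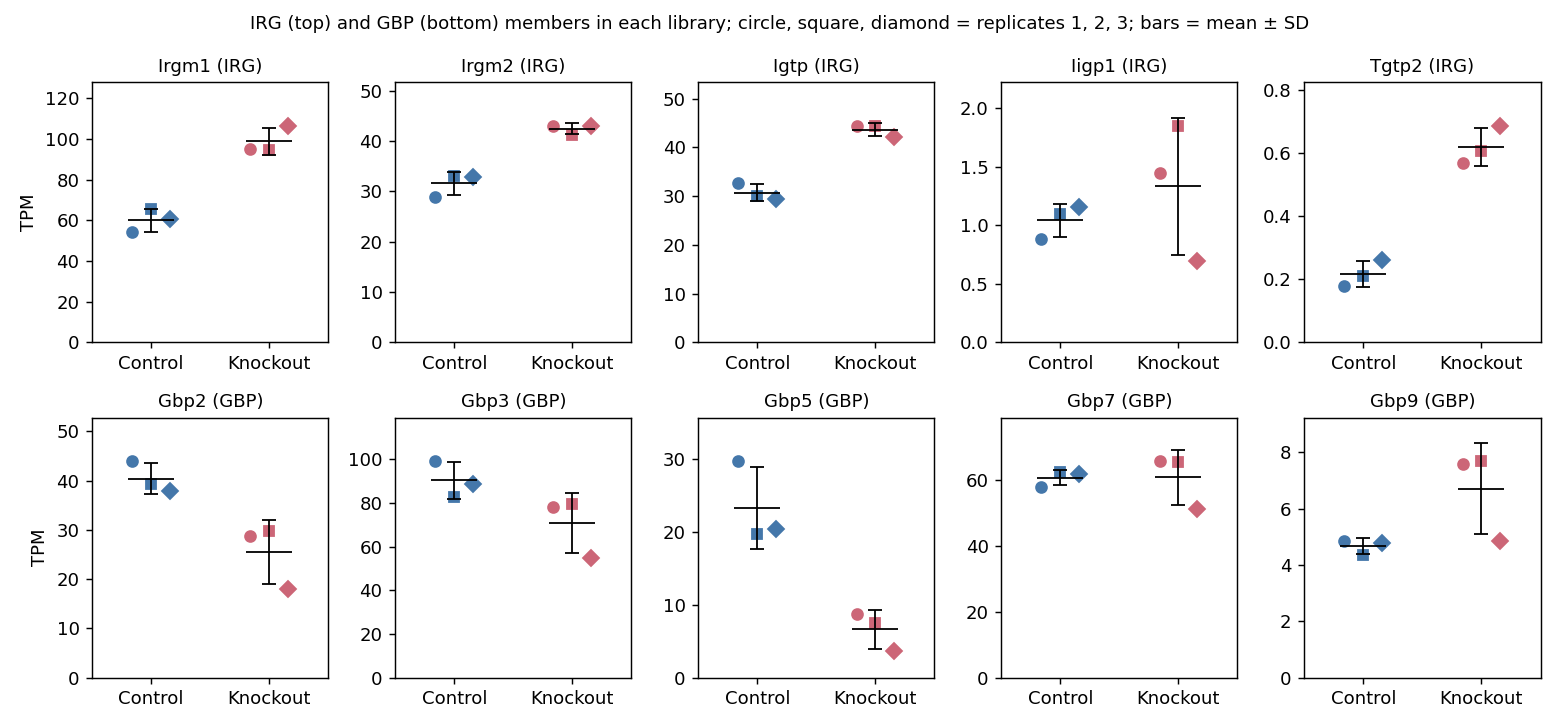
TPM of each of the 10 genes in each library, 1 panel per gene with its own vertical axis starting at 0, Control and Knockout side by side, with circle, square and diamond for replicates 1, 2 and 3 and bars at the mean ± SD. The groups are apart for 4 IRG genes (higher in Knockout) and 3 GBP genes (lower in Knockout), and Knockout replicate 3 is the lowest Knockout library for all 5 GBP genes.

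The GBP genes did not move as a block. Gbp5, a GBP that carries a prenyl anchor, showed the widest gap, with 29.7, 19.7 and 20.3 TPM in Control and 8.76, 7.53 and 3.64 TPM in Knockout libraries. Its mean fell to 0.286 of the Control mean, a log2 difference of -1.71 (SE 0.29) with no overlap between groups. Without Knockout replicate 3 that difference was -1.39. Gbp2, likewise prenylated and known for loading onto vacuoles of Toxoplasma, had 44.0, 39.4 and 37.9 TPM in Control and 28.8, 29.7 and 18.0 TPM in Knockout libraries. The ratio was 0.631 and the log2 difference -0.67 (SE 0.18). The groups were apart, but the gene no longer passed the test without Control replicate 1 (-0.61), 2 (-0.69) or 3 (-0.72), nor in limma without its trend and robust settings.

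Gbp3, the most abundant GBP in both groups, was measured at 99.3, 82.9 and 89.0 TPM in Control and 78.0, 79.5 and 55.1 TPM in Knockout libraries. The lowest Control value stood just above the highest Knockout value, and the log2 difference of -0.36 (SE 0.14) did not pass, and was -0.19 without Knockout replicate 3. Gbp7, linked to assembly of the phagocyte oxidase, gave 58.1, 62.6 and 61.8 TPM in Control and 65.8, 65.5 and 51.2 TPM in Knockout libraries. Replicates 1 and 2 of the Knockout lay above all Control values and replicate 3 below them, which left a log2 difference of -0.01 (SE 0.10), and 0.11 without replicate 3. Gbp9, whose mean was higher in the Knockout group, had 4.86, 4.35 and 4.79 TPM in Control and 7.59, 7.69 and 4.85 TPM in Knockout libraries. The log2 difference was 0.42 (SE 0.16) and did not pass with all libraries, whereas it did, at 0.61, without Knockout replicate 3.

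Of the 4 IRG genes that could be tested, 3 rose, none fell and 1 did not pass. Of the 5 GBP genes, none rose, 2 fell and 3 did not pass. Of all 13034 tested rows, 18.5% rose and 10.1% fell, by limma at an adjusted p under 0.05, and since the genes were chosen with this contrast known nothing is read from the comparison. Groups were apart and higher in Knockout libraries for 4 of 5 IRG genes and apart and lower for 3 of 5 GBP genes, where 30.2% and 19.8% of all tested rows were so. Knockout replicate 3 was the lowest Knockout library for 5 of 5 GBP genes and the lowest of all 6 libraries for 4 of them. For the IRG genes it was the highest Knockout library in 2 of 5 and the lowest in 2 of 5.

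**Figure D3:**
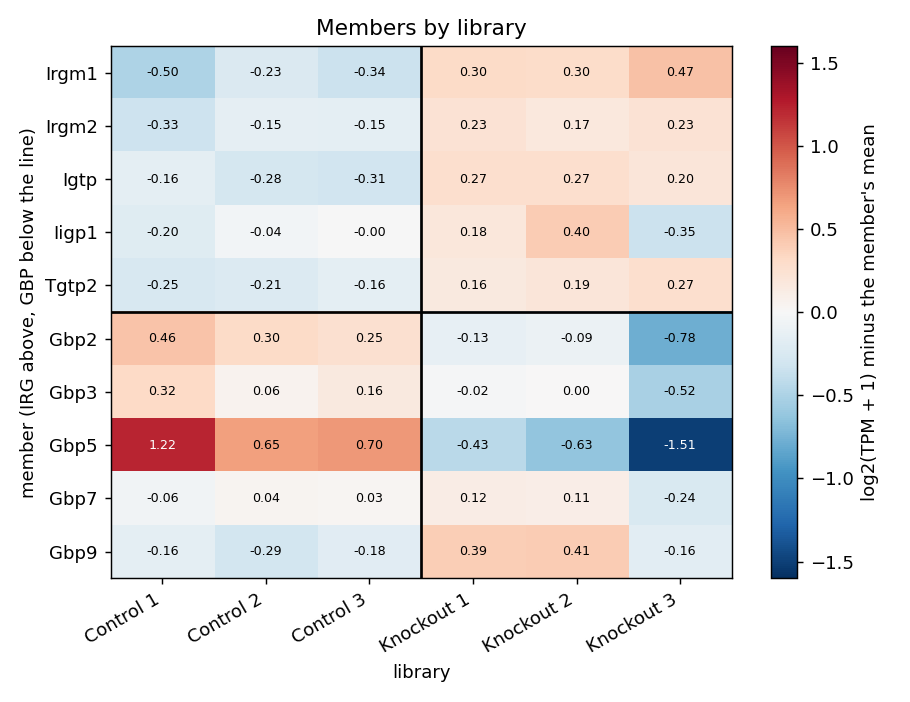
Each gene's log2(TPM + 1) minus its own mean over the 6 libraries, with IRG genes above the line and GBP genes below it, and libraries in columns. Gbp5 spans 1.22 in Control replicate 1 to -1.51 in Knockout replicate 3, while Irgm1, Irgm2, Igtp and Tgtp2 are below 0 in all Control and above 0 in all Knockout libraries.

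The order of transcript levels changed with genotype at its top. In Control libraries Gbp3 led, followed by Gbp7 and Irgm1, whose ranges overlapped, then Gbp2, then Irgm2, Igtp and Gbp5, which overlapped with their neighbours, then Gbp9, Iigp1 and Tgtp2. In Knockout libraries Irgm1 led with no overlap, ahead of Gbp3 and Gbp7, which overlapped. Igtp and Irgm2 followed, overlapping, then Gbp2, then Gbp9 and Gbp5, overlapping, and again Iigp1 and Tgtp2 last. Across the 6 libraries Irgm1 and Irgm2 tracked each other (Pearson r = 0.985 on log2 values), as did Gbp2 and Gbp5 (r = 0.970), and Irgm1 ran opposite to Gbp5 (r = -0.974). Iigp1 followed Gbp7 (r = 0.889) and Gbp9 (r = 0.807). These correlations describe 6 libraries that share the split by genotype and batch.

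Neighbouring genes often had different values. On chromosome 3, Gbp5, Gbp7, Gbp3, Gbp2b and Gbp2 are consecutive coding genes in RefSeq, and their log2 differences in that order were -1.71, -0.01, -0.36, -1.05 and -0.67. Thus Gbp7 at -0.01 sits between a gene that fell and one that did not pass. On chromosome 5, Gbp8 and Gbp9 are neighbours, and Gbp8 fell by 1.22 while Gbp9 had a difference of 0.42. Their annotated gene spans overlap on the same strand, as does that of Gbp4 with both. Overlap of exons was not checked, so the split of reads among these 3 genes may be uncertain. On chromosome 11, Irgm1 lies in one group with Tgtp2 and Ifi47, and Igtp and Irgm2 lie next to each other 133 coding genes farther on. Iigp1 lies on chromosome 18 with 7 coding genes between it and Cd74 itself.

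The rest of the 2 families was listed beside the 10 genes. All lists were chosen with earlier results of these data known, so their limma p-values are no independent test of the contrast. Of 7 other GBP symbols, 6 had a row and 2 were tested, and both fell. Gbp2b, the gene formerly called Gbp1, went from 36.3 ± 1.00 to 17.3 ± 3.67 TPM (SD, n = 3 each), a log2 difference of -1.05 with an SE of 0.14 and a limma adjusted p of 0.00428. Gbp8 went from 12.1 ± 0.241 to 4.79 ± 1.69 TPM (SD, n = 3 each), at -1.22 with an SE of 0.21 and a limma adjusted p of 0.00859. Gbp4, Gbp6, Gbp10 and Gbp11 had group means under 0.8 TPM and were not tested. Of 15 other IRG symbols, 9 had a row, 6 were tested, and none rose or fell. Ifi47, an effector beside Tgtp2, came nearest, at 16.9 ± 0.685 and 19.4 ± 1.03 TPM (SD, n = 3 each) with groups apart, a log2 difference of 0.19 and a limma adjusted p of 0.0654. Gm4951, whose difference was 0.41, passed without Knockout replicate 3, at 0.76. Differences of the other tested ones were -0.05 for Irgq, 0.02 for Gm5431, -0.16 for 9930111J21Rik1 and -0.08 for 9930111J21Rik2. Gm12250, Gm12185 and F830016B08Rik were too low to test. The median over the 6 tested IRG genes was -0.02, beside 0.04 over all tested rows, and the tested IRG genes that rose were the 3 IRGM regulators. The effector Tgtp2 was higher with groups apart but was kept out of the test by the level filter. Without that filter, 4 of the 5 IRG genes described first were called higher, all but Iigp1, as were 2161 of all 17217 rows. Since these genes were chosen with the contrast known, nothing is read from that count. Among the Mx and Gvin GTPases, Mx1 (0.23) and Mx2 (-0.04) did not pass and Gvin1 was under 0.1 TPM.

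**Figure D4:**
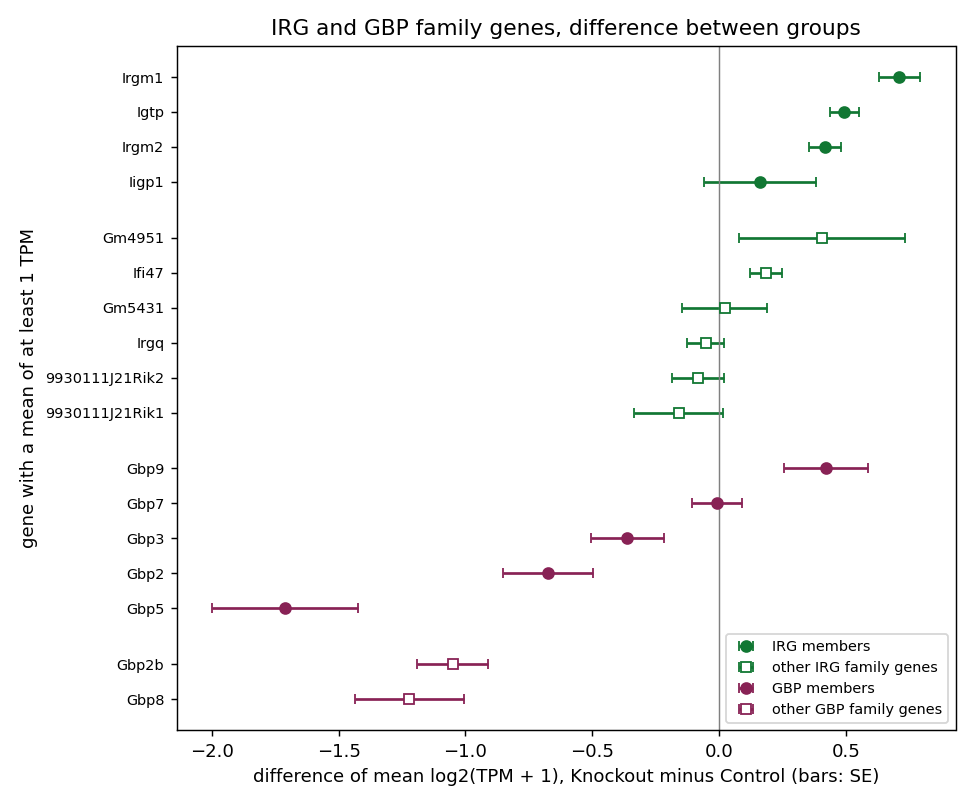
Difference of mean log2(TPM + 1), Knockout minus Control, with its SE, for each IRG (green) and GBP (purple) family gene of mean TPM of at least 1, filled circles for the 10 genes described above where tested and open squares for other family genes. Values run from -1.71 for Gbp5 to 0.71 for Irgm1, and both other GBP genes lie below -1.

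Interferon signals upstream of both families were examined next. Of 11 symbols of interferons and related cytokines only 3 had a row, namely Il12b, Il18 and Il27, none of them an interferon. Ifng and Ifnb1 were among those without a row. Il27, a cytokine subunit that activated macrophages make, fell from 57.6 to 20.9 TPM, at -1.49 with an SE of 0.36 and a limma adjusted p of 0.0217, and it no longer passed without Control replicate 1 (-1.26). Among 7 receptor and kinase genes, 2 fell, none rose and 5 did not pass, with a median of 0.04. Jak2, the kinase bound to the second chain of the interferon gamma receptor, stood at 88.5, 88.8 and 89.9 TPM in Control and 66.1, 63.2 and 47.8 TPM in Knockout libraries. That was a fall of the log2 value by 0.60 with an SE of 0.11 and a limma adjusted p of 0.0108. Tyk2, a kinase of the type I receptor, fell by 0.37 with a limma adjusted p of 0.0323, but no longer passed without Control replicate 1 (-0.33), 2 (-0.38) or 3 (-0.41) or Knockout replicate 2 (-0.42). Ifngr1 (0.16), Ifngr2 (0.08) and Jak1 (0.04) did not pass. Ifngr1 passed without Knockout replicate 3, at 0.22, and the sign of Jak1 turned under other scalings of the libraries.

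Transcription factors of the interferon response were examined by gene. Irf2, a factor that competes with IRF1, rose by 0.29 (limma adjusted p = 0.0171), and Nmi, an interferon-induced protein, by 0.24 (limma adjusted p = 0.0274). Both lost the call without Control replicate 1 (0.26 and 0.19) or 2 (0.29 and 0.26) or Knockout replicate 1 (0.26 and 0.24) or 2 (0.30 and 0.23). Irf1 (-0.03), Irf9 (-0.04) and Irf8 (-0.40) did not pass, though Irf8 did in a fit with the replicate number as a block. Of 8 feedback inhibitors, 2 rose and none fell. Usp18, which holds back the type I receptor, rose by 0.33 with a limma adjusted p of 0.00555. Trim21 rose by 0.30 but no longer passed without Control replicate 1 (0.29) or 3 (0.24) or Knockout replicate 2 (0.29) or 3 (0.26). Socs1, the inhibitor of JAK kinases, was at -0.06 and did not pass.

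Other interferon-induced genes moved in both directions. So did the table as a whole, where 18.5% of the 13034 tested rows rose and 10.1% fell. These shares stand beside the counts of every list. Of 21 tested interferon gamma targets, 3 rose, 5 fell and 13 did not pass, with a median of -0.11 that became 0.03 without Knockout replicate 3. Cxcl10, the chemokine IP-10, fell by 1.22 (limma adjusted p = 0.0057), and Wars, a tryptophan tRNA ligase, fell by 0.50 (limma adjusted p = 0.00269). Cd274, which encodes PD-L1, fell by 0.72 and no longer passed without Control replicate 1 (-0.63), 2 (-0.77) or 3 (-0.76) or Knockout replicate 2 (-0.81). Tapbp, the peptide-loading chaperone tapasin, rose by 0.47 (limma adjusted p = 0.00286). Psmb8, an immunoproteasome subunit, rose by 0.18 and Icam1, an adhesion receptor, by 0.16. Psmb8 no longer passed without Control replicate 2 (0.16) or 3 (0.16) or Knockout replicate 1 (0.16) or 2 (0.19). Icam1 lost its call without Control replicate 1 (0.15), 2 (0.19) or 3 (0.14) or Knockout replicate 1 (0.16) or 2 (0.14).

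Of 29 tested type I interferon-stimulated genes, 11 rose, 6 fell and 12 did not pass, with a median of 0.11, and 14 rose and 5 fell without Knockout replicate 3. Oas2, an oligoadenylate synthetase, stood at 55.2, 60.5 and 59.0 TPM in Control and 93.9, 91.5 and 104 TPM in Knockout libraries, a log2 difference of 0.72. Eif2ak2, the kinase PKR, rose by 0.52 and Trim30a by 0.50. Rsad2, the antiviral enzyme viperin, fell by 1.38, Oasl1 by 1.19 and Isg15, a ubiquitin-like modifier, by 0.60. Limma adjusted p-values were 0.00173 for Oas2, 0.00307 for Eif2ak2, 0.00295 for Trim30a, 0.0123 for Rsad2, 0.005 for Oasl1 and 0.0132 for Isg15. Rises and falls within one class of induced genes were thus measured outside the GTPases as well as between the IRG and GBP genes. With 18.5% of all tested rows rising and 10.1% falling, a list with both directions is not read as particular to interferon-induced genes.

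**Figure D5:**
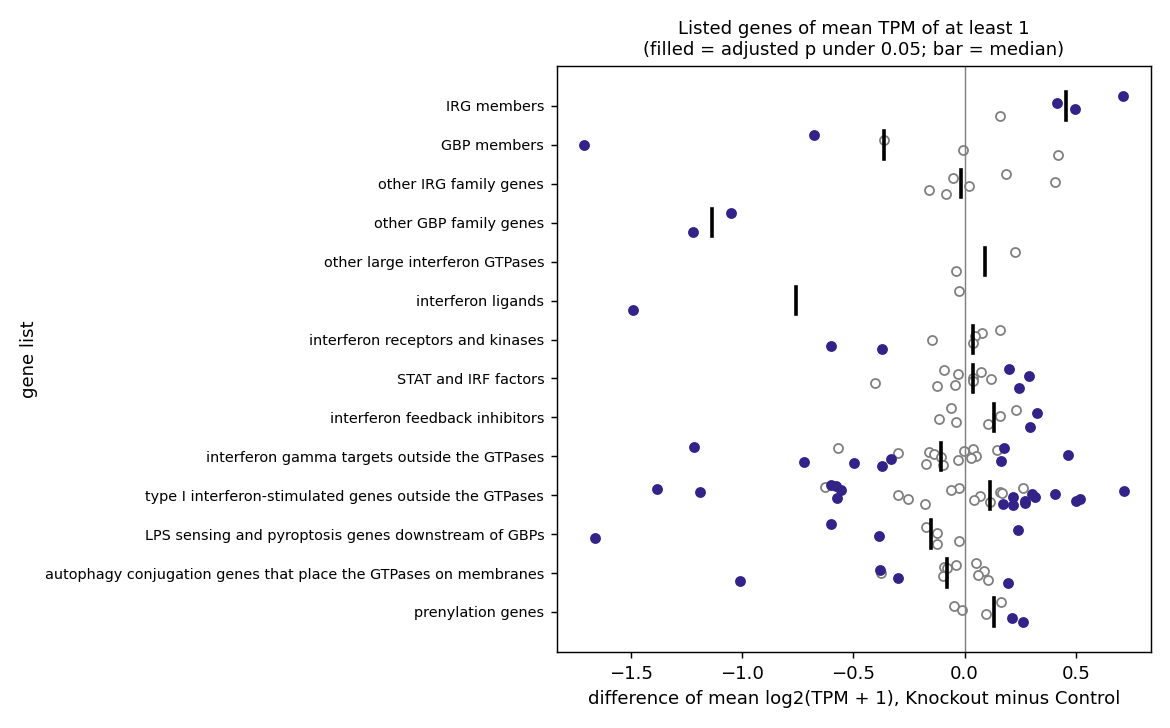
Difference of mean log2(TPM + 1), Knockout minus Control, for each tested gene of 14 lists in rows, with filled points at a limma adjusted p under 0.05 and a bar at each list's median. The 4 tested IRG genes of the 10 lie above 0, the other IRG family genes lie on both sides of 0, the 2 other GBP genes lie at -1.05 and -1.22, and the type I interferon-stimulated genes spread from -1.38 to 0.72.

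Genes known to act with the GTPases were measured last. Of 8 tested genes of cytosolic LPS sensing and pyroptosis, 1 rose, 3 fell and 4 did not pass. Casp4, which encodes caspase-11, fell by 0.60 (limma adjusted p = 0.00881), and Nlrp3, an inflammasome sensor, fell by 0.39 (limma adjusted p = 0.00691). Il1b fell by 1.66 and no longer passed without Control replicate 1 (-1.61) or 3 (-1.63). Gsdmd, the pore-forming gasdermin D, rose by 0.24 and no longer passed without Control replicate 1 (0.26), 2 (0.22) or 3 (0.23) or Knockout replicate 1 (0.21) or 2 (0.21). Of 13 genes of the autophagy machinery that places the GTPases on membranes, 1 rose, 3 fell and 9 did not pass. Sqstm1, the cargo receptor p62, fell by 1.01, Atg12 by 0.38 and Gabarapl1 by 0.30, with limma adjusted p-values of 0.00618, 0.0093 and 0.00788. Arhgdia rose by 0.20 and no longer passed without Control replicate 1 (0.21), 2 (0.21) or 3 (0.17) or Knockout replicate 2 (0.21). Of 6 genes of prenylation and of the later processing of prenylated proteins, 4 did not pass. Zmpste24 rose by 0.26 and Icmt by 0.21, both genes of the later steps. The subunits of the enzymes that attach the prenyl group, Fnta (0.17), Fntb (-0.05) and Pggt1b (-0.01), did not pass. Zmpste24 lost its call without Control replicate 1 (0.20), 2 (0.31) or 3 (0.28) or Knockout replicate 1 (0.30), 2 (0.29) or 3 (0.20). Icmt lost its call without Control replicate 1 (0.23), 2 (0.22) or 3 (0.19) or Knockout replicate 1 (0.22).

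Among the 13025 rows compared, those whose log2 values followed the IRG mean most closely over the 6 libraries were Gm10825 (Pearson r = 0.999), Phtf2, Wdr90, H3f3a and Trim30a (0.996). Those closest to the GBP mean were Lilr4b and Cd300lf (0.998 each), Slc25a30, Slfn4 and Zfp523 (0.997 each). Slfn4, a schlafen gene, averaged 1504 TPM in Control and 938 TPM in Knockout libraries, and Trim30a 117 and 166 TPM. Like the correlations among the GTPases, these are over 6 libraries that fall into 2 groups.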

How the data were processed

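Bulk RNA-seq of 6 libraries was available as 1 deposited table of TPM values. The unit was read from the values, whose columns summed to 991721 to 998572, since the file header names none, and 0 per-sample columns were left unmapped. GRCm39 and DESeq2 are named, without a role, per the submitters' processing notes, and for the aligner, counting tool and annotation a name is not given in the sources used here. With exon lengths of GENCODE M21 (an earlier build, used for lengths and gene overlaps), or for 680 rows another length found by search, 17188 of 17217 rows (99.8%) were whole reads within 0.02 read (0.003 in the search). In values of 1 to 12 reads, 71.0% were even.

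The 3 Knockout libraries were compared with the 3 Control libraries by limma 3.58.1 (trend, robust; R 4.3.3) on log2(TPM + 1) computed from the deposited values, for the 13034 rows of mean TPM of at least 1. P-values were two-sided and adjusted over these rows by Benjamini-Hochberg, and a gene was called under 0.05. Log2 differences are Knockout minus Control. The 10 genes and all lists were chosen with earlier results of these data known. Named genes were the 10, the rest of both families, fixed signalling genes, up to 3 called genes of each direction per list, and 5 rows per family by correlation. Alternatives changed the pseudocount, filter, scaling, variance model, replicate block, read model and libraries used. One signalling gene is not reported here. The code was tested on simulated data. Promoter windows were from RefSeq (GRCm38.p6), with those on chromosome 18 left out.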

Additional observations from a re-analysis of the deposited data

How the results depend on the processing

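The direction of the IRG, GBP and GBP minus IRG differences held in all alternatives run. The IRG difference (0.44) was 0.62 with a pseudocount of 0.1, 0.33 with a pseudocount of 5 and 0.54 over genes of mean TPM of at least 10, where the GBP minus IRG difference was -1.23, since low genes then weigh more, less or not at all. Leaving out each library in turn gave 0.41 to 0.47 for IRG, -0.58 to -0.26 for GBP and -1.01 to -0.73 for GBP minus IRG. The same omissions gave 1978 to 3250 called rows in the whole table (1312 to 2094 higher, 666 to 1222 lower), against 3719 (2406 and 1313). Each such fit has fewer libraries. With median-of-ratios scaling 1817 rows were higher and 1760 lower (50.8% of calls higher), with upper-quartile scaling 1872 and 1706 (52.3%), against 64.7%. For 57 named genes, 729 of 846 values kept call and direction, 95 lost the call, 4 gained it, and no called gene turned. Calls of Trim21, Psmb8, Icam1, Arhgdia, Zmpste24 and Icmt were lost under both scalings, those of Nmi and Gsdmd under upper-quartile scaling, and those of Gbp2, Tyk2, Nmi, Psmb8, Icam1, Cd274, Arhgdia, Zmpste24 and Icmt in limma without trend and robust settings. Without a filter Icam1, Cd274 and Zmpste24 lost their calls, and Tgtp2, not tested otherwise, was called higher. With a pseudocount of 0.1 Zmpste24 lost its call, and in limma-voom on recovered reads Psmb8 and Icam1 did. Keeping only genes of mean TPM of at least 1, chosen after seeing the data, gave an IRG difference of 0.45. Replicate numbers did not pair the libraries (correlations of same-numbered deviations 0.13, -0.08 and 0.03), and with the replicate block 3711 rows were called, 2331 higher and 1380 lower. In that fit Icam1, Arhgdia and Icmt lost their calls and Irf8 gained one. Of the 10 genes, Tgtp2 and Iigp1 rested on the fewest reads.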
